A study of Mus musculus with 13 samples.

Results

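Hyaluronan is a long sugar polymer that fills the space around fibroblasts, and 8 genes of its synthesis and of the matrix built on it were followed across 13 primary cultures of mouse skin fibroblasts. They were chosen by name: the hyaluronan synthases Has1, Has2 and Has3, the hyaluronan-binding proteoglycan versican (Vcan), the link proteins Hapln1 and Hapln3, the hyaluronan-modifying protein Tnfaip6 (TSG-6) and the receptor Cd44. All 8 were found among the 25655 genes measured. The cultures were untreated fibroblasts from the dermis of newborn mice, each from 1 mouse per the series' design text, and they carried either 2 wild-type copies of Fbn1 (WT) or 2 copies of the G234D allele (G234D). Fbn1 encodes fibrillin-1, the main protein of extracellular microfibrils. Set 1 consisted of W1 to W4 (4 WT cultures) and M1 to M4 (4 G234D cultures), and set 2 of W5 and W6 (2 WT cultures) and M5 to M7 (3 G234D cultures). The question named by the series was whether the allele alters matrix gene expression in fibroblasts outside the animal.

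Within set 1 the sample titles carry numbers that fall into separate ranges. W1, W2, M1 and M2, with the lower numbers, are called the earlier animals here, and W3, W4, M3 and M4 the later animals. No label says what the numbers stand for, and the number of W1 lies apart from those of W2, M1 and M2. Expression was given as TPM (transcripts per 1000000), a unit already divided by transcript length, so that levels can be compared between genes. Library depth cannot be read from TPM and is unknown.

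Hyaluronan is made at the plasma membrane by the 3 synthases from activated UDP-sugars. Versican binds it through its amino-terminal domain, link proteins hold that bond, TSG-6 transfers protein heavy chains onto it, and CD44 ties it to the cell surface. Versican also binds fibrillin-1 microfibrils through its carboxy-terminal domain. In skin this network is a hydrated, loose matrix that fibroblasts lay down, and it is known to change in wounds.

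The libraries were alike in the number of genes at 1 TPM or more (11741 to 12042), and in every culture the 8 fibroblast markers summed to 19160 TPM or more. Cultures M1 and M2 stood apart in markers of other cells. Their 7 Schwann cell markers summed to 136 and 138 TPM against 18.5 to 45.3 TPM in the other cultures. Their 8 skeletal muscle markers summed to 299 and 256 TPM against 62.6 to 148 TPM elsewhere. The 8 macrophage markers summed to 48.8 and 67.7 TPM in M1 and M2, 11.2 to 28.8 TPM in the rest of set 1 and 27.9 to 54.3 TPM in set 2. Fbn1 itself lay between 400 and 507 TPM in 5 WT cultures and 543 TPM in W3, and between 433 and 600 TPM in G234D. A single-residue allele need not lower its transcript, so this level does not check the labels.

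The promoters of Tnfaip6 and Cd44 are shown first. Of the 8 genes, these 2 passed the test, given below, of whether the genotype difference differed between earlier and later animals. RefSeq (GRCm38.p6) gave a promoter window for 6 of the 8 genes. Capitals mark the only match to the AP-1 motif TGANTCA in these stretches, searched on both strands in the bases before the gene start. The Tnfaip6 stretch is chr2:52037863-52038008 on the plus strand and ends at the base before the GENCODE start of the gene. The Cd44 stretch is chr2:102901666-102901915 on the minus strand.
Tnfaip6: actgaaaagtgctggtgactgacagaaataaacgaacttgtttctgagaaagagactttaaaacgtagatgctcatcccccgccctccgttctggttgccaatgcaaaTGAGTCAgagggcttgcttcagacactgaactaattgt
Cd44: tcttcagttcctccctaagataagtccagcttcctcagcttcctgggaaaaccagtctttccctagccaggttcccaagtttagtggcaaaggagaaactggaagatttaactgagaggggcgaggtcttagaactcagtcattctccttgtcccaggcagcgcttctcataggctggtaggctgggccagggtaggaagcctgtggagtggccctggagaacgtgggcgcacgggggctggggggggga
The Tnfaip6 match begins 38 bases before the end of its stretch. AP-1 matches were present in 6.75% of the 32851 mouse promoter windows of 250 bases. The Cd44 stretch held no match to TGANTCA, to the CRE motif TGACGTCA (1.55% of windows), to TATAAA (12.4%) or to GGAATG, the TEAD motif (12.6%). The Tnfaip6 stretch also held no match to the CRE motif, TATAAA or the TEAD motif, but its full window of 250 bases held a TEAD match. A match is a description of these letters and not evidence of binding.

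Has2 was the main synthase transcript in every culture. Its share of the summed TPM of the 3 synthases was 91.5% in M7 at the lowest and 97.4% in W5 at the highest. Has2 is overlapped on the opposite strand by Has2os, a noncoding gene not analysed here, and reads from Has2 and Has2os may not be told apart without the strand setting. Has2 (chromosome 15, 56665627 to 56694539, mm10) makes long hyaluronan and is the synthase required for heart development in the mouse. It stood at 33.71, 24.66, 24.75 and 29.28 TPM in W1 to W4 and at 26.51, 29.09, 32.05 and 16.92 TPM in M1 to M4. In set 2 it stood at 20.13 and 19.41 TPM in W5 and W6 and at 17.93, 16.83 and 26.70 TPM in M5 to M7. The genotypes overlapped in both sets, and M4 was the lowest culture of set 1. In set 1 the WT mean was 28.1 ± 4.32 TPM (SD, n = 4), and the G234D mean was 26.1 ± 6.55 TPM (SD, n = 4). Over both sets Has2 differed by −0.071 on the log2(TPM + 1) scale (G234D minus WT, SE 0.15, 95% interval −0.39 to 0.25, limma adjusted p = 0.964).

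Has1 (chromosome 17, 17843323 to 17855205) was a minor synthase transcript at 0.36 to 2.40 TPM. It was at 1.61, 0.98, 1.15 and 1.81 TPM in W1 to W4, at 2.09, 1.42, 1.27 and 0.84 TPM in M1 to M4, at 0.36 and 1.07 TPM in W5 and W6, and at 0.82, 1.25 and 2.40 TPM in M5 to M7. The lowest and the highest culture both belonged to set 2, and the genotypes overlapped in each set. Its genotype difference was 0.20 over both sets (SE 0.18, 95% interval −0.19 to 0.59, limma adjusted p = 0.916), 0.0021 in set 1 and 0.52 in set 2. At these levels log2(TPM + 1) understates a fold change.

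Has3 (chromosome 8, 106870242 to 106884566), which makes shorter hyaluronan, and the link proteins Hapln1 and Hapln3 did not reach 1 TPM in any culture and did not enter the fits. Has3 ranged from 0.068 to 0.34 TPM. Part of the Has3 gene overlaps Chtf8 on the opposite strand, and whether the counting used strand is not stated, so reads from Chtf8 and Has3 may not be told apart. Hapln1 (chromosome 13, 89539796 to 89611652), the cartilage link protein, ranged from 0.022 to 0.24 TPM. It is the neighbour of Vcan, with 43659 bases between them, and Vcan was expressed while Hapln1 was near 0. Hapln3 (chromosome 7, 79115102 to 79131018) ranged from 0.030 to 0.18 TPM, and its 4 values in the later animals (0.030 to 0.065 TPM) lay below all others (0.13 to 0.18 TPM). Such levels may stand for few reads, and how many is unknown. Genotype differences of these 3 genes were −0.021 for Has3 (exact permutation p = 0.719, two-sided, 700 relabelings within the sets), 0.0050 for Hapln1 (exact permutation p = 0.924) and −0.0085 for Hapln3 (exact permutation p = 0.727).

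Versican was abundant and the steadiest of the 5 genes that entered the fits. Vcan (chromosome 13, 89655312 to 89742509) was at 157, 129, 153 and 116 TPM in W1 to W4 and at 150, 139, 156 and 144 TPM in M1 to M4. It was at 115 and 116 TPM in W5 and W6 and at 114, 130 and 129 TPM in M5 to M7. Its highest value was 1.37 times its lowest, against 2.00 for Has2, 2.01 for Cd44, 5.03 for Tnfaip6 and 6.74 for the low Has1. Its coefficient of variation was still 12.1%, larger than that of 69.4% of the 9913 genes with a mean of 5 TPM or more. The genotypes overlapped in both sets. The genotype difference was 0.099 over both sets (SE 0.065, 95% interval −0.041 to 0.24, limma adjusted p = 0.886), 0.098 in set 1 and 0.099 in set 2.

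Tnfaip6 (chromosome 2, 52038009 to 52056686) varied most among the 4 members with a mean of 5 TPM or more. It was at 18.01, 17.71, 31.82 and 28.82 TPM in W1 to W4 and at 7.26, 8.47, 30.08 and 36.53 TPM in M1 to M4. In set 2 it was at 26.58 and 24.83 TPM in W5 and W6 and at 24.95, 28.29 and 18.50 TPM in M5 to M7. The coefficient of variation over the 13 cultures was 37.8%, larger than that of 98.1% of the 9913 genes with a mean of 5 TPM or more. That share was also high for Has2 (93.4%) and Cd44 (92.4%). M1 and M2 were the lowest cultures, all 4 later animals lay above all 4 earlier ones, and the genotypes overlapped in set 2. The genotype difference over both sets was −0.35 (SE 0.35, 95% interval −1.12 to 0.42, limma adjusted p = 0.920), and without M1 and M2 it was 0.20 (limma adjusted p = 0.848).

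Cd44 (chromosome 2, 102811141 to 102901665), the main hyaluronan receptor of fibroblasts, was the most abundant of the 8 genes except in M3, where Vcan was higher. It was at 210, 221, 214 and 212 TPM in W1 to W4 and at 287, 249, 143 and 166 TPM in M1 to M4. In set 2 it was at 159 and 158 TPM in W5 and W6 and at 159, 181 and 157 TPM in M5 to M7. In set 1 the WT cultures lay close together, while 2 G234D cultures lay above all of them and 2 below. The WT mean of set 1 was thus 214 ± 4.84 TPM (SD, n = 4), and the G234D mean was 211 ± 68.0 TPM (SD, n = 4). Over both sets the genotype difference was −0.025 (SE 0.14, 95% interval −0.32 to 0.27, limma adjusted p = 0.990).

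**Figure D1:**
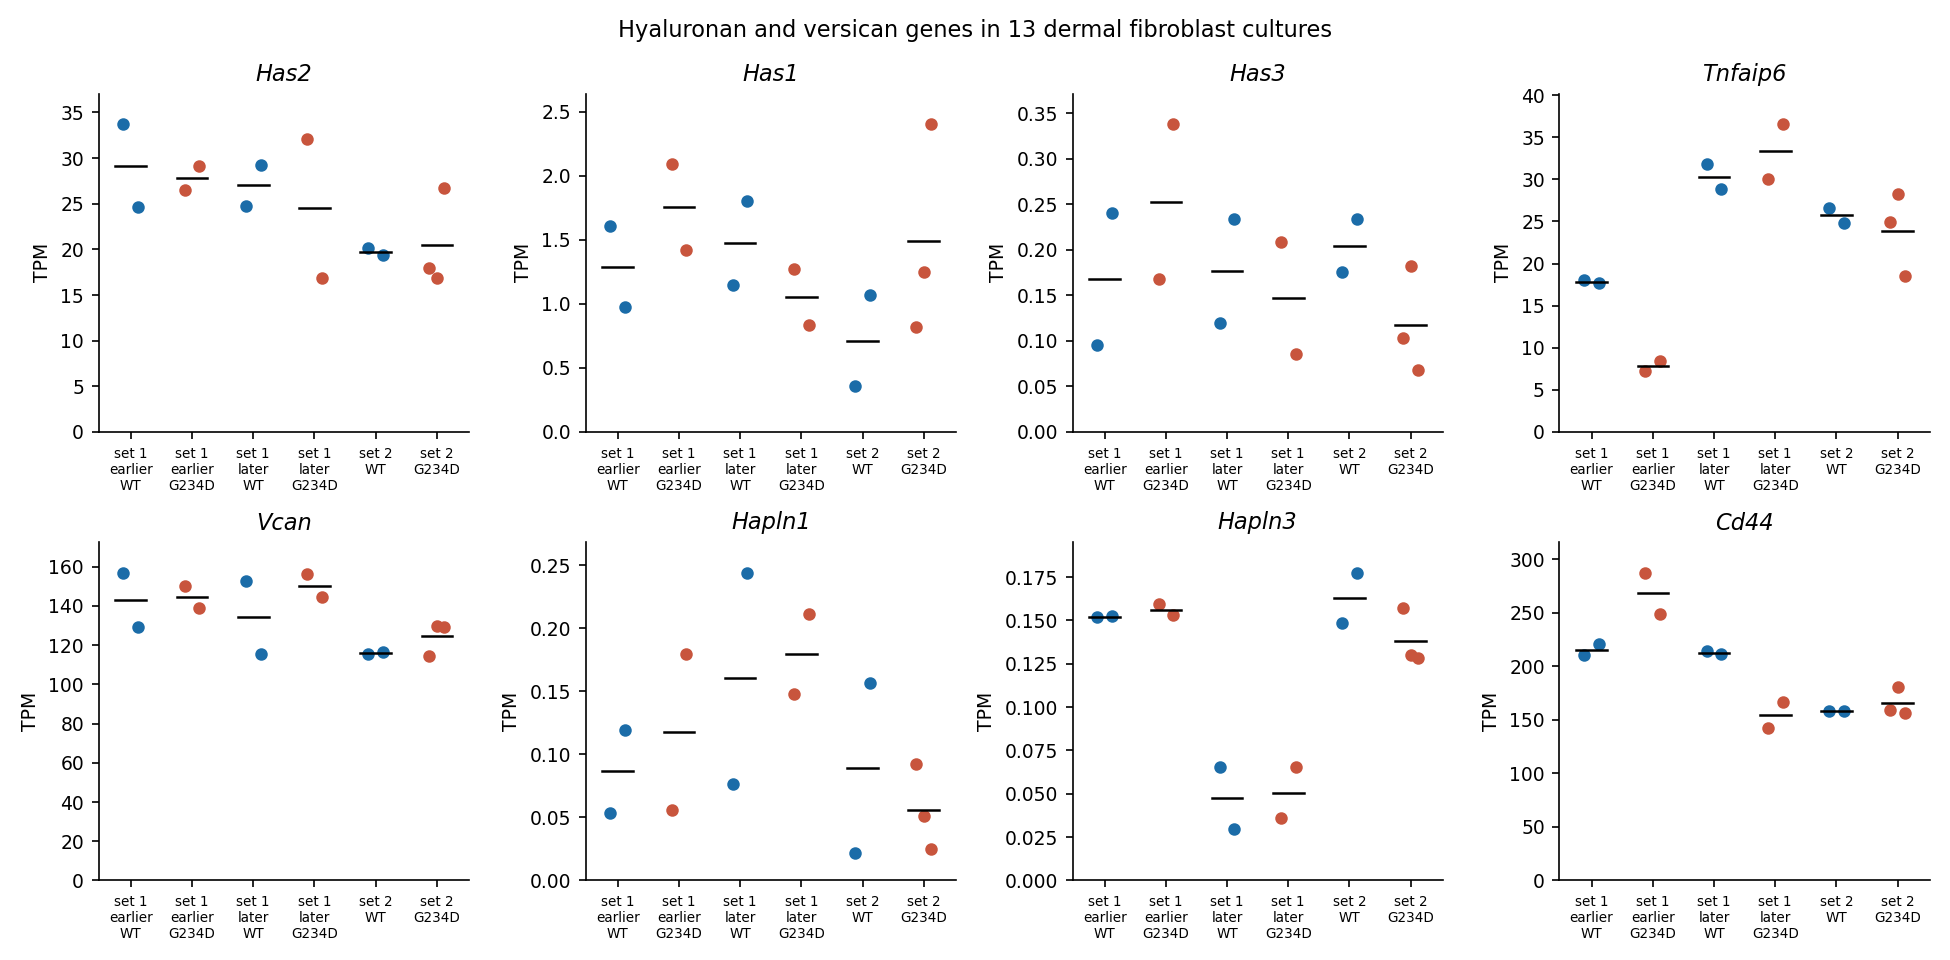
TPM of each of the 8 genes (y axis, from 0, a scale of its own for each gene) in the 13 cultures, grouped on the x axis by set, by earlier or later animals within set 1, and by genotype. Points are cultures (blue WT, red G234D) and bars are group means; Tnfaip6 is lowest and Cd44 highest in the earlier G234D animals (M1 and M2).

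Across genotype, then, 0 of the 5 genes tested were called in limma at an adjusted p under 0.05 over both sets, in set 1, in set 2 or in the difference between the sets. The background was as low: 0% of 11942 genes were called over both sets, 0% of 11905 in set 1, 0.00829% of 12060 in set 2 (1 gene) and 0% of 12033 for the difference between the sets. At an unadjusted p under 0.05 there were 769 genes over both sets (6.44%), 721 in set 1 (6.06%), 781 in set 2 (6.48%) and 691 for the difference between the sets (5.74%), and none of the 5 genes was among them. The intervals given above bound the differences over both sets most closely for Vcan and least closely for Tnfaip6.

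**Figure D2:**
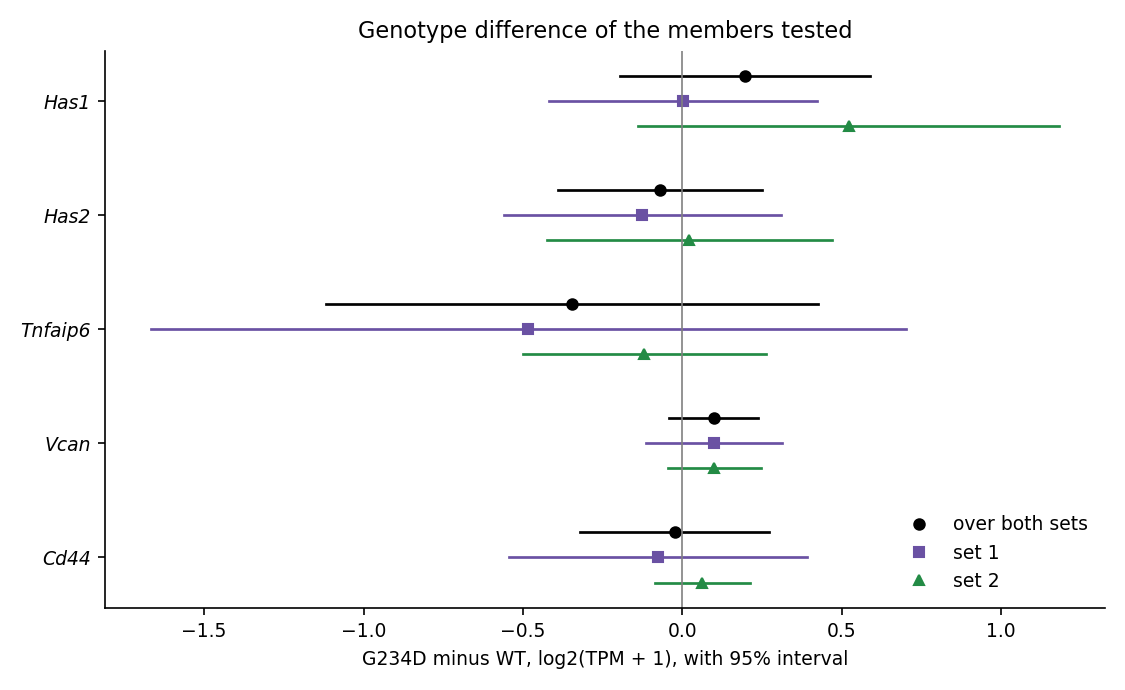
Difference G234D minus WT on the log2(TPM + 1) scale (x axis) for the 5 genes that entered the fits, with limma's 95% interval, over both sets (black circles), in set 1 (purple squares) and in set 2 (green triangles). Every interval includes 0, and that of Tnfaip6 in set 1 is the widest.

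The other genes of the pathway were likewise without a call by genotype. Of 79 such genes 60 entered the fit over both sets and 0 were called. Of the 60, 10 were at an unadjusted limma p under 0.05, where 6.44% of 11942 genes were. The lists were chosen with earlier results of these data known, so no conclusion is drawn from this count. The median difference of the 60 genes was 0.058 against 0.011 for all genes. Among enzymes that supply UDP-sugars, 7 of 8 had a positive difference, as did 56.6% of all genes, with Gfpt1, the rate-limiting enzyme of the hexosamine pathway, at 0.11 (limma adjusted p = 0.742). Cemip, a protein needed for hyaluronan breakdown in skin fibroblasts, differed by 0.25 (limma adjusted p = 0.931), and the lysosomal hyaluronidase Hyal1 by 0.25 (limma adjusted p = 0.855). Fbn1 differed by 0.15 and fibronectin (Fn1), another pericellular matrix protein, by 0.20 (limma adjusted p = 0.742 for each).

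Within set 1 the genotype difference of Tnfaip6 and of Cd44 was not the same in the earlier and the later animals. In the earlier animals Tnfaip6 had a mean of 17.9 TPM in WT and 7.86 TPM in G234D, a difference of −1.09 on the log2 scale. In the later animals the means were 30.3 and 33.3 TPM, a difference of 0.13. Cd44 went the other way, with means of 216 TPM in WT and 268 TPM in G234D in the earlier animals (0.31) and of 213 and 155 TPM in the later animals (−0.46). Each of these groups held 2 cultures, so single groups were not tested. Genotypes did not overlap for 2 of the 5 genes in the earlier animals (Cd44 and Tnfaip6), where 57.7% of 11905 genes did not, and for 1 in the later animals (Cd44), where 39.7% did not. Lack of overlap is thus no sign particular to these genes.

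The genotype difference of the later animals minus that of the earlier animals was tested as an interaction over the 8 cultures. It was 1.22 for Tnfaip6 (SE 0.15, 95% interval 0.88 to 1.56, limma adjusted p = 0.00726) and −0.77 for Cd44 (SE 0.12, 95% interval −1.04 to −0.50, limma adjusted p = 0.0163). So 2 of the 5 genes were called, where 2.81% of 11905 genes were (0.932% higher and 1.87% lower). That count of 334 genes was 46 without M1, 61 without W4, 69 without W2, 78 without W1, 179 without W3 and 690 without M3. Has1 (−0.54), Has2 (−0.15) and Vcan (0.16) were not called (limma adjusted p = 0.383, 0.889 and 0.723). The Tnfaip6 call held when any 1 of the 8 cultures was left out (1.08 to 1.36, limma adjusted p 0.00127 to 0.0402). The Cd44 call was lost without W1 (limma adjusted p = 0.0719), W2 (0.0601), W3 (0.0528), W4 (0.0714) or M1 (0.0578), while its value stayed between −0.88 and −0.66.

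M1 and M2 are the earlier G234D animals, so the marker sums given above move with these differences. In the same test all 6 Schwann cell markers that entered the fit were called, each with a lower genotype difference in the later animals. All 6 skeletal muscle markers tested were below 0 (median −1.86, 1 called, Acta1), as were all 5 macrophage markers tested (median −1.02, 0 called). Of 8 fibroblast markers 7 were above 0, and Col3a1 and Pdgfra were called higher, as was the chondrocyte marker Sox9. Pdgfra was at 37.8 and 48.7 TPM in M1 and M2 and at 83.3 to 143 TPM in the rest of set 1. The fibroblast marker sums were 19160 and 21480 TPM in M1 and M2 and 21710 to 25870 TPM in the rest of set 1. The part of these markers in the Tnfaip6 and Cd44 results was not tested. In bulk RNA, fewer cells of a type and less RNA per cell cannot be told apart. No fit without both M1 and M2 can give this interaction, since no earlier G234D animal would remain.

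**Figure D3:**
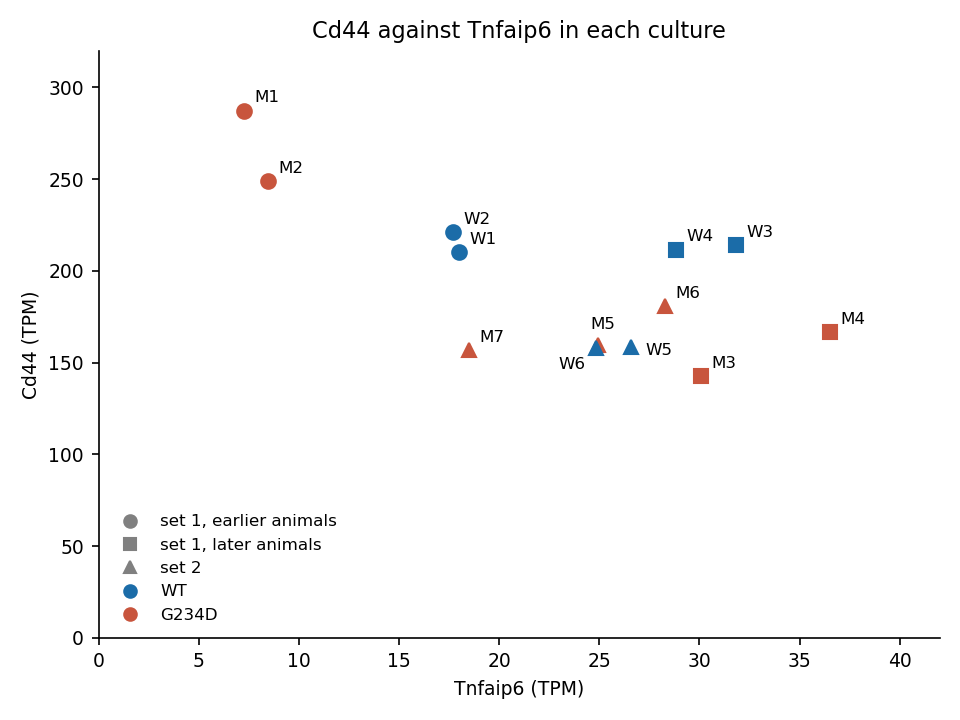
Cd44 (y axis, TPM) against Tnfaip6 (x axis, TPM) in the 13 cultures; shape gives the earlier animals, the later animals or set 2, and colour the genotype. M1 and M2 lie at the top left, with Tnfaip6 at 7.26 and 8.47 TPM, and the later G234D animals M3 and M4 at the lower right.

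Tnfaip6 also differed between the earlier and the later animals in a fit with genotype as a covariate. Later minus earlier, it was higher by 1.34 on the log2 scale (SE 0.24, 95% interval 0.78 to 1.90, limma adjusted p = 0.0280), and it was the 1 gene called of the 5, where 7.14% of 11905 genes were called, 2.79% higher and 4.35% lower. That count of 850 genes fell to 36 without M2, 92 without M1, 276 without W1, 289 without M4, 361 without M3 and 493 without W3. With median-of-ratios scaling, 50.97% of all calls were higher, against 39.1% as reported. In WT cultures alone, which leave M1 and M2 aside, the difference was 0.73 (17.9 to 30.3 TPM) and was not tested, and in G234D cultures it was 1.95 (7.86 to 33.3 TPM). The call was lost without M1 (limma adjusted p = 0.0776), M2 (0.108), M3 (0.0653) or M4 (0.0516), at values between 1.16 and 1.27. In the same comparison all 5 macrophage markers tested were below 0 (median −1.10, 1 called, Laptm5), as were all 6 Schwann cell and all 6 skeletal muscle markers tested (0 called). The fibroblast markers Pdgfra and Dcn were called higher, and the pericyte marker Rgs5 lower. The part of these markers in the result was not tested. For Cd44 the difference was −0.40 and was not called (limma adjusted p = 0.153), with −0.018 in WT cultures and −0.79 in G234D cultures.

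Of the pathway genes, 8 of 60 (13.3%) were called between later and earlier animals, against 7.14% of all genes tested. Because the lists were chosen with earlier results of these data known, no conclusion is drawn from this count. Ptx3, a pentraxin that binds TSG-6 and helps crosslink hyaluronan, was at 142, 128, 131 and 122 TPM in W1, W2, M1 and M2 and at 179, 183, 230 and 224 TPM in W3, W4, M3 and M4. All later animals lay above all earlier ones, by 0.63 (SE 0.083, limma adjusted p = 0.0100), and this call held when any 1 culture was left out. The genotype difference of Ptx3 was also higher in the later animals, by 0.42 (SE 0.086, limma adjusted p = 0.0390), a call lost without any of 6 of the 8 cultures (W1 to W4, M1 and M2). Adamts1, a protease that cleaves versican, was higher in the later animals by 0.50 (limma adjusted p = 0.0402), a call lost without W1, W2, W3, M1, M2 or M4. The gelatinase Mmp9, which docks on CD44, was at 2.09 to 4.74 TPM in the later animals and higher in all 4 earlier ones, up to 9.49 TPM. It was lower in the later animals (−1.21, limma adjusted p = 0.00576), also when any 1 culture was left out. Layn, a further hyaluronan receptor, was lower (−0.29, limma adjusted p = 0.0480). Of 20 chondroitin sulfate genes, whose products build the side chains of versican, Csgalnact1 was called higher and Chst12, Ust and Fam20b lower. These last 5 calls (Layn, Csgalnact1, Chst12, Ust and Fam20b) were each lost without M1, M2, M3 or M4. They were also lost without W1 for Layn, Chst12 and Fam20b, without W3 for Layn, Csgalnact1 and Fam20b, and without W4 for Fam20b.

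In the interaction 4 of the 60 pathway genes (6.67%) were called, against 2.81% of all genes tested. Besides Ptx3 they were Fbn2, Chst12 and Msn. No conclusion is drawn from this count either, since the lists were chosen with earlier results of these data known. Fbn2, encoding fibrillin-2, a relative of fibrillin-1, was at 66.9 and 75.7 TPM in M1 and M2, at 106 and 116 TPM in W1 and W2, and at 123 to 156 TPM in the later animals. Its genotype difference was higher in the later animals by 0.84 (SE 0.13, limma adjusted p = 0.0151), a call lost without M1 or W2 (up to an adjusted p of 0.0715). Msn, the moesin that links CD44 to actin, was at 822 and 798 TPM in M1 and M2 and at 573 and 569 TPM in M3 and M4, with 675 to 729 TPM in the 4 WT cultures. Its value was −0.42 (SE 0.063, limma adjusted p = 0.0134), in the direction of Cd44, and the call was lost without W1, W2, W4 or M1. Chst12, a chondroitin sulfotransferase, gave −0.46 (SE 0.087, limma adjusted p = 0.0296), and this call was lost without W1, W2, W3, W4, M1 or M2. Cemip stood at 115 and 135 TPM in M1 and M2 and at 29.4 to 78.8 TPM in the rest of set 1, without being called (−0.86, SE 0.57, limma adjusted p = 0.486).

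**Figure D4:**
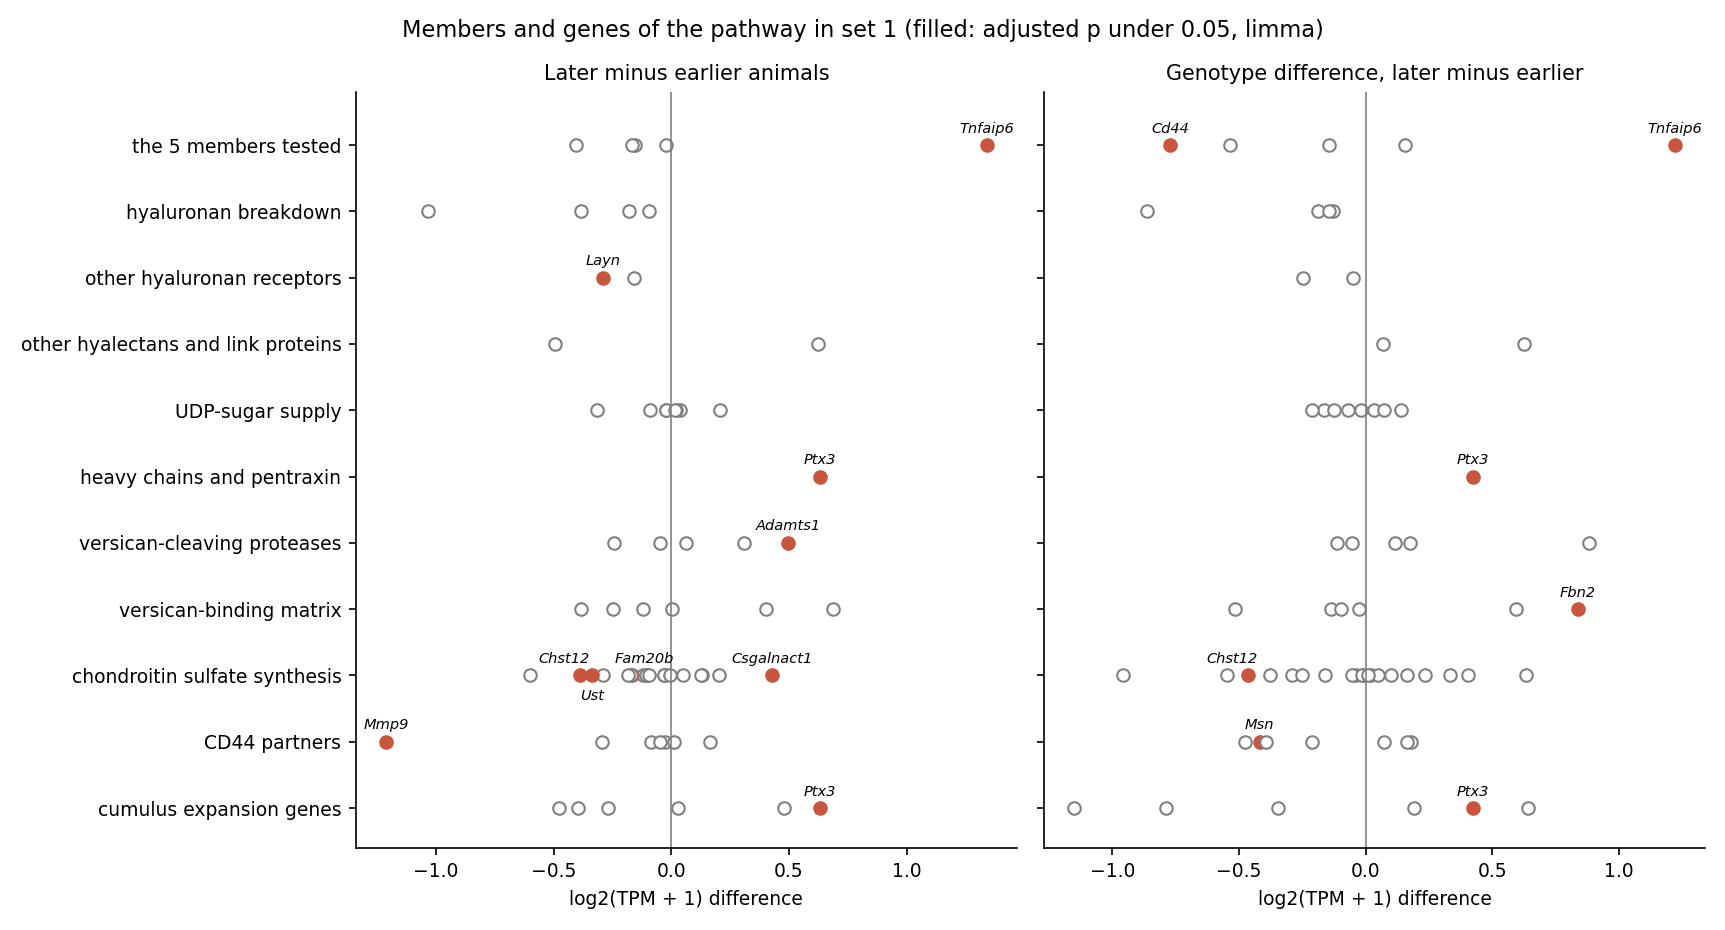
Differences on the log2(TPM + 1) scale (x axis) of the 5 genes tested and of the pathway genes by list (y axis) in set 1, for later minus earlier animals (left) and for the genotype difference of later minus that of earlier animals (right). Filled points passed limma at an adjusted p under 0.05; Tnfaip6 lies farthest to the right in both panels, at 1.34 and 1.22.

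Versican was lower in set 2 than in set 1. The range was 114 to 130 TPM in set 2 and 116 to 157 TPM in set 1, where only W4 (116 TPM) and W2 (129 TPM) fell within the range of set 2. With genotype as a covariate the difference was −0.24 (set 2 minus set 1, SE 0.067, 95% interval −0.39 to −0.10, limma adjusted p = 0.0108), and it held when any 1 culture was left out. It was the 1 gene called of the 5, in a comparison where 39.1% of 12033 genes were called, 21.7% of them lower and 17.5% higher as shares of all genes. Everything that differed between the sets is contained in this comparison, and its parts cannot be told apart. Has2 (−0.39, limma adjusted p = 0.0555) and Cd44 (−0.36, limma adjusted p = 0.0612) were below zero without being called, and Tnfaip6 was at 0.34 (limma adjusted p = 0.480). Without the 4 earlier animals Tnfaip6 was lower in set 2 by 0.36 (−0.36, limma adjusted p = 0.0368), and Vcan was at −0.24 (limma adjusted p = 0.0340).

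Pathway genes differed between the sets in 30 of 60 cases, 12 higher and 18 lower in set 2, where 39.1% of all genes tested were called (17.5% higher and 21.7% lower). As the lists were chosen with earlier results of these data known, no conclusion is drawn from this count. Of the 8 enzymes of UDP-sugar supply, 6 were lower and 1 (Nagk, which salvages N-acetylglucosamine) higher in set 2. Gfpt1 was at 56.1 to 63.5 TPM in set 1 and at 42.6 to 52.0 TPM in set 2, a difference of −0.32 (SE 0.038, limma adjusted p = 5.47e-05). Gnpnat1 (−0.26) and Pgm3 (−0.30), the next enzymes of the hexosamine pathway, were lower as well, and without the 4 earlier animals 5 of the 8 were called, all lower. Of the versican-cleaving proteases 3 of 5 were higher: Adamts1 (0.82), Adamts5 (0.49) and Adamts15 (0.54). Without M1 and M2, and without the 4 earlier animals, the Adamts15 call was lost. Adamts5 was at 51.1 to 65.5 TPM in set 1 and 75.3 to 90.8 TPM in set 2, with no overlap. Ptx3 was higher by 0.80 (SE 0.16, limma adjusted p = 0.00228), with 267 to 299 TPM in every culture of set 2 against at most 230 TPM in set 1. Among proteins that act with CD44, ezrin (Ezr, −0.60) and moesin (Msn, −0.45) were lower and the membrane protease Mmp14 (0.31) was higher. The fibroblast marker sums were also higher in set 2, at 26950 to 30640 TPM, with 6 of 8 markers called higher, and 3 of 6 Schwann cell markers were called lower. Macrophage markers lay above 0 in all 7 tested (median 0.41, Csf1r called higher). Acta1 was called lower among skeletal muscle markers, and the melanocyte marker Dct was called higher. The part of any of these markers in these results was not tested.

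The genes whose levels followed each member most closely were sought by Pearson's r on log2(TPM + 1) after subtraction of the set mean. It was computed over 13 cultures and, for each member, genes with a mean of 5 TPM or more, 9722 in number (9723 for Has1). Genes with Gm-number, Rik, pseudogene or other clone-like symbols, and those with the mt- prefix, had been left out of these. All points share their libraries, and M1 and M2 weigh heavily, so r is also given without them. The closest genes were picked by r over all 13 cultures, so their r without M1 and M2 is no independent check. Only the set mean was subtracted, so differences between the earlier and the later animals remain in r. For Tnfaip6 the closest were Megf6 (0.99, and 0.96 without M1 and M2), Cyp4b1 (0.98 and 0.94) and Arap1 (0.98 and 0.93). For Cd44 they were Cavin2 (0.98 and 0.97), Niban2 (0.97 and 0.95) and Slc39a6 (0.96 and 0.97). Has2 was followed by Tshz1 (0.90 and 0.91), Wbp11 (0.89 and 0.89) and Fblim1 (0.89 and 0.92), and Vcan by Pon3 (0.92 and 0.93), Gpc6 (0.83 and 0.85) and Srpr (0.83 and 0.89). Has1 was followed by Ezr (0.86 and 0.85), Ccsap (0.84 and 0.83) and Traf4 (0.83 and 0.86). Between members r was −0.75 for Cd44 with Tnfaip6, but −0.39 without M1 and M2. It was 0.56 for Has1 with Has2 (0.60 without them), 0.14 for Has2 with Vcan (0.15) and 0.042 for Has2 with Cd44 (−0.017).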

How the data were processed

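TPM per gene were deposited by the authors for each of 13 libraries, per the file headers. Libraries were made with a directional kit, per the labels' protocols, and the genome build mm10 is named in the submitters' processing notes. For the aligner, counting tool, strand setting and annotation, the entry is: not given in the sources used here. TPM hold no read totals, so no counting interval could be given, and the number of cultures sets the precision. Coordinates came from GENCODE M21 (25600 of 25655 identifiers and all 8 members matched) and promoters from RefSeq.

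The design named counts or TPM, and the TPM branch was used: limma 3.58.1 in R 4.3.3 on log2(TPM + 1), with trend and robust empirical Bayes, Benjamini-Hochberg adjustment over all genes tested and calls at an adjusted p under 0.05. Genes needed 1 TPM in as many libraries as the smaller group (6 over both sets, 4 in set 1, 2 in set 2, 5 for both comparisons of the sets). The fit over both sets had set as covariate, the set 2 minus set 1 fit genotype, and later minus earlier genotype. Genes under the filter had an exact permutation test.

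Named genes were the 8 members, Fbn1, up to 3 genes per pathway list with the smallest p in each comparison, and the 3 genes most like each member. Where a count of calls is spelled out, its other genes (Fam20b, Nagk, the markers) were named after their values were seen. Members and lists were chosen with earlier results of these data known. Same-numbered WT and G234D cultures of set 1 had correlated deviations (0.314, 0.236, 0.244 and 0.214, limit 0.1), while set 2 gave −0.155 and 0.0138. Differently numbered cultures of the same animal group gave 0.397 (W1 with M2), 0.189 (W2 with M1), 0.440 (W3 with M4) and 0.0885 (W4 with M3). Pairs across the animal groups ran from −0.454 to −0.132. So these values do not show that the numbers pair the cultures. The shared numbers come from the genotype labels. Alternatives were the pseudocount (0.1), filters (none, 5 TPM), the robust step, median-of-ratios scaling, the replicate block, the animal group as covariate and cultures left out.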

Additional observations from a re-analysis of the deposited data

Results flagged for a closer look

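The interaction test in set 1 asked whether the genotype difference differed between the later and the earlier animals. Members and lists were chosen with earlier results of these data known, so no conclusion is drawn from the number called. Among the 5 members and 60 pathway genes tested, 6 were called (limma adjusted p under 0.05), where 2.81% of 11905 genes were called. That count of 334 genes ran from 46 to 690 when 1 culture was left out. The values, later minus earlier on the log2(TPM + 1) scale, were 1.22 for Tnfaip6, −0.77 for Cd44, 0.84 for Fbn2, −0.46 for Chst12, −0.42 for Msn and 0.42 for Ptx3. Only the Tnfaip6 call held when any 1 culture was left out. The earlier G234D animals M1 and M2 also carried the highest sums of Schwann cell and skeletal muscle markers, and the part of those markers was not tested.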

How the results depend on the processing

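The replicate block changed no call of a member. With it, 1 gene was called in set 1 and 21 in set 2, where Has2 was at −0.18 and Tnfaip6 at 0.047. M7 has no WT culture of the same number, so with the block it adds nothing to the genotype difference. The Has2 and Tnfaip6 values are thus those of set 2 without M7. With the animal group as covariate 1 gene was called in set 1. Without a filter on low TPM 0 genes were called in set 2, 269 between later and earlier animals, and 139 in the interaction of genotype and animal group. In that interaction Tnfaip6 was the 1 member called, and the Cd44 call was lost (limma adjusted p = 0.0513). With median-of-ratios scaling Has1 was at −0.0025 in set 1, Has2 at −0.012 in set 2, and Vcan at −0.023 between the sets' genotype differences and 0.0073 between later and earlier animals; with a pseudocount of 0.1 Has1 was at −0.0074 in set 1. Set 2 minus set 1 called 3 members without the robust step (Has2 and Cd44 added, limma adjusted p = 0.0464 and 0.0481) and, chosen after seeing the data, 2 without the earlier animals (Tnfaip6 at −0.36). Tnfaip6 over both sets was 0.20 without M1 and M2. Within set 1, Has1 was at −0.27 and Tnfaip6 at 0.13 in the later animals and Cd44 at 0.31 in the earlier. The causes were not tested.

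Leaving out 1 culture at a time, values crossed 0 for uncalled differences. Over both sets Has2 ran from −0.14 to 0.045 and Cd44 from −0.12 to 0.080. In set 1 Has1 ran from −0.13 to 0.12, Has2 from −0.23 to 0.062 and Cd44 from −0.24 to 0.092. In set 2 Has2 ran from −0.18 to 0.14, Cd44 from −0.0024 to 0.10 and Tnfaip6 from −0.25 to 0.047. Between the sets' genotype differences Has2 ran from −0.051 to 0.27, Vcan from −0.062 to 0.084 and Cd44 from −0.030 to 0.30. Later minus earlier, Has2 ran from −0.33 to 0.022 and Vcan from −0.085 to 0.074, and in the interaction Has2 from −0.59 to 0.30 and Vcan from −0.044 to 0.36. Has3 ran from −0.058 to 0.0026, Hapln1 from −0.015 to 0.037 and Hapln3 from −0.028 to 0.0076. Genes called ran from 0 to 2 in set 1, 0 to 14 in set 2, 0 to 1 for the difference between the sets, 36 (without M2) to 855 for later minus earlier, and 46 (without M1) to 690 (without M3) in the interaction. Members called ran from 0 to 1 for later minus earlier, 1 to 2 in the interaction and 1 to 3 for set 2 minus set 1.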
